A study of Mus musculus with 15 samples.

Results

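Cd4, Cd8a, Cd8b1, Zbtb7b, Runx1, Runx3, Gata3, Tox, Myb and Satb1 were followed across 15 expression arrays of sorted mouse thymocytes. These 10 genes encode the T cell coreceptors and transcription factors known to act on the choice between the CD4 and the CD8 lineage. They were chosen by name, with earlier results of these data known. Where a gene had several probe sets, the brightest by mean over the 15 arrays was read. They are 10 of the 18193 genes the arrays measured, and all 10 were among the 11871 genes that passed the filter on dim signal and were tested. Cd8a and Zbtb7b were above the array median in 14 of 15 arrays and the other 8 genes in all 15, so none of the 10 entered the test through 1 bright group. Cd4, Cd8a and Cd8b1 encode the surface proteins the cells were sorted on. Where the sort separated groups by these proteins, as between double-positive and CD4 single-positive cells, their levels describe the sort gates first.

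Each of 5 groups had 3 samples, all from the thymus of young adult mice on the C57BL/6 background. The Tak1-deficient SM&M1 group was CD4 single-positive (CD4SP), Qa2- and CD69+, and came from Tak1f/f CD4Cre mice, in which Cre under Cd4 regulatory sequences deletes the gene of the kinase Tak1. PreDP cells were thymocytes carrying both coreceptors (double-positive) that had not been selected, CD69- and TCRβ-, and PostDP cells were their selected counterparts, CD69+ and TCRβ+. Both double-positive groups came from B2m-/- mice, which lack β2-microglobulin and so select only T cells restricted by MHC class II. SM&M1 cells (Qa2- CD69+) and M2 cells (Qa2+ CD69-) were earlier and later CD4SP thymocytes of Rag2-GFP BAC transgenic mice. They were gated on GFP and against NK1.1, CD25 and GL3, a gate meant to remove NKT, regulatory, γδ and recirculating T cells. The labels give no such gate for the Tak1-deficient cells. Replicates are labelled biological, with no word on separate animals. The p-values therefore cover the variation among these samples alone, and some of it may be technical.

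CD4 binds MHC class II and CD8, a pair of α and β chains, binds MHC class I, and each coreceptor carries the kinase Lck to the T cell receptor. Double-positive thymocytes carry both coreceptors, and after selection a cell keeps CD4 or CD8 as it becomes a helper or a cytotoxic cell. Zbtb7b encodes ThPOK, which is required for the helper fate and opposes Runx3, while Runx1 and Runx3 bind the Cd4 silencer and Runx3 drives the cytotoxic programme. Gata3, Tox and Myb act before or alongside Zbtb7b in the making of CD4 cells, and Satb1 organises chromatin in thymocytes and is needed for the expression of lineage genes.

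RefSeq promoter windows (GRCm38.p6, 250 bases before to 50 bases after a start) were at hand for 7 of the 10 genes, in 14 windows; Cd4, Cd8b1 and Tox had no entry. The RUNX core word TGTGGT, searched on both strands (ACCACA on the other), stood in 3 of the 14 windows, against 16.8% of all 32851 promoter windows. Those 3 are shown because they are all the windows with a match, and they belong to Zbtb7b, Runx3 and Runx1. Each of these genes also had another window, with no match. Below, the window of each gene means the one shown. Capitals mark the RUNX core, and each window is written along its gene's strand.
Zbtb7b, chr3:89387622-89387921, minus strand: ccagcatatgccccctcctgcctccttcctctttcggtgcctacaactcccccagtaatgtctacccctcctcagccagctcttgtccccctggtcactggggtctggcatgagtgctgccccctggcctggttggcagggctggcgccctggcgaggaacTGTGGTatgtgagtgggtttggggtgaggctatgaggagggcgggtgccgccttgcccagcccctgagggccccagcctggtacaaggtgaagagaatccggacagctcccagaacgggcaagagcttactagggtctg
Runx3, chr4:135120395-135120694, plus strand: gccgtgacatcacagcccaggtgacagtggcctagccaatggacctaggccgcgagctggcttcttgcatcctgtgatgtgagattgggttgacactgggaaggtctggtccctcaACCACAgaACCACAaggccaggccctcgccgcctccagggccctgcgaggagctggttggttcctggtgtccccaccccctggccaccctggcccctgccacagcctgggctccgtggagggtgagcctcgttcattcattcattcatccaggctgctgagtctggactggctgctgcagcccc
Runx1, chr16:92826025-92826324, minus strand: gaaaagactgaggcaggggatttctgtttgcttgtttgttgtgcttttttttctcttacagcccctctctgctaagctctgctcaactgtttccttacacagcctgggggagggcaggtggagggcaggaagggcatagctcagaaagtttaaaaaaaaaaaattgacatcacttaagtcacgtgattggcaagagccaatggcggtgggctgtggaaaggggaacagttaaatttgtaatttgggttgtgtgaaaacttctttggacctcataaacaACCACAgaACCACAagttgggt
In Zbtb7b the word began 89 bases before the start. In Runx3 the pair of words began 134 and 126 bases before it, and in Runx1 the pair began 28 and 36 bases after it. The Runx windows shared the run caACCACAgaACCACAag, 18 bases long, which 4 promoter windows of 4 genes held among the 32851. A GATA word, meaning GATA with A or T before it and A or G after it on either strand, stood in 1 of the 14 windows, that of Gata3, against 29.8% of all windows. A MYB word, meaning AACNG with C or T before it on either strand, stood in 5 of the 14, against 49.7%. These letter matches describe the windows only and say nothing of binding.

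Signal was read as log2(signal + 16), called log2 signal here. The arrays had been scaled to a common trimmed mean before deposit, and their number limits the precision. Map3k7, the gene of Tak1, averaged 5.39 ± 0.65 in Tak1-deficient SM&M1 cells and 10.42 ± 0.03 in SM&M1 cells (SD, n = 3 each). B2m averaged 9.67 ± 0.11 in PreDP and 10.10 ± 0.07 in PostDP, the B2m-/- groups, and 14.36 ± 0.33 in SM&M1 cells (SD, n = 3 each). Tak1-deficient replicate 2 stood apart: its median signal was 167.8, against 80.5 to 121.5 in the other 14 arrays, and it correlated with the other arrays of its group at 0.873 and 0.879, against at least 0.965 within the other groups. Calls of the 10 genes and of the companion lists that change without it are given with and without it.

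Across the 4 stages the 10 genes took unlike courses. Of the 10, 4 rose and 3 fell in PostDP against PreDP (limma, Benjamini-Hochberg adjusted p under 0.05). Of all tested genes 14.9% were called in this comparison, 7.35% higher and 7.57% lower. In SM&M1 against PostDP 3 rose and 4 fell, against 12.0% of all genes called, 7.84% higher and 4.14% lower. These calls include the sort markers Cd4, Cd8a and Cd8b1, and the sort into CD4SP cells fixed the CD8 falls beforehand. The other calls there were Zbtb7b and Runx3, higher, and Gata3 and Myb, lower. M2 against SM&M1 gave 0 calls among the 10 in the limma fit of all arrays, with 3 at an unadjusted p under 0.05, against 2.33% of all genes called. A fit of only these groups called 2, Gata3 and Tox, with a replicate block (594 of all genes) and with none (428 of all genes). Tak1-deficient SM&M1 against SM&M1 gave 1 call, lower, against 1.69% of all genes called and 1.26% called lower. The median absolute log2 difference of the 10 genes was 1.15 in PostDP against PreDP and 1.16 in SM&M1 against PostDP, where that of all genes was 0.29 and 0.28. It was 0.25 in M2 against SM&M1 (all genes 0.18) and 0.25 under Tak1 loss (all genes 0.29). The sort markers are among the 10 genes in all these medians. Because SM&M1 and PostDP cells came from different mouse lines, stage and line cannot be told apart in that comparison, and the same holds for genotype, line and sort gate in the Tak1 comparison. Tak1 loss is used here as a name for the Tak1 comparison only, not for an effect of the kinase alone. In bulk samples such as these, fewer cells of a type and less RNA per cell cannot be told apart either.

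**Figure D1:**
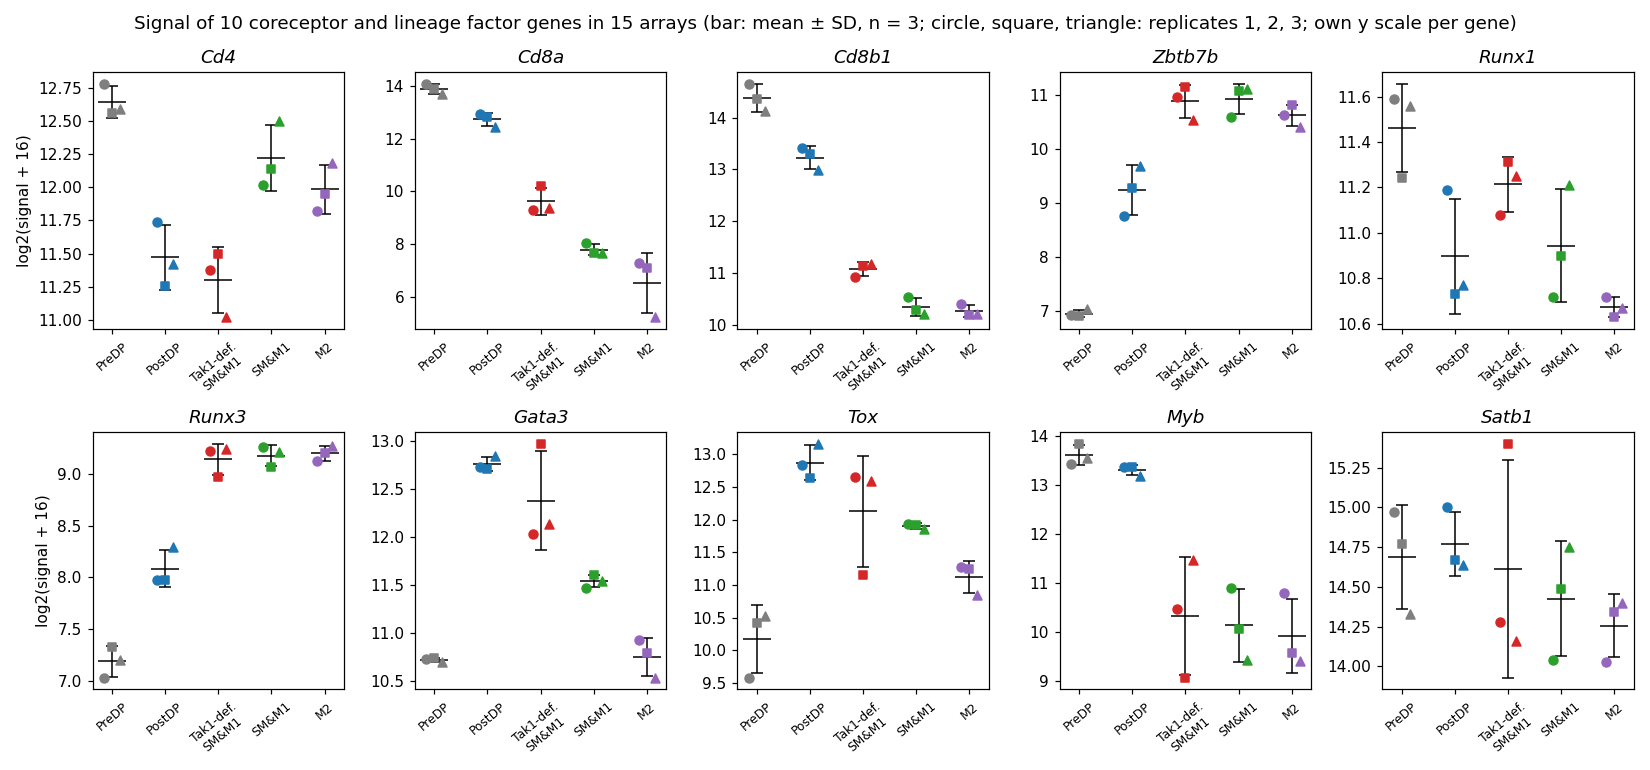
Log2 signal (y axis, own scale for each gene) of the 10 genes in 5 groups (x axis). Points are single arrays with a symbol for each replicate and bars are the mean ± SD (n = 3). Cd8a and Cd8b1 are lower in every CD4SP array than in every double-positive array, Zbtb7b and Runx3 are higher in every CD4SP array than in every double-positive array, and Gata3 and Tox have their highest stage means in PostDP.

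Cd8a and Cd8b1 separated double-positive from CD4SP cells as the gates did. Between PreDP and PostDP, which were gated apart by CD69 and TCRβ, Cd4 fell together with Cd8b1. Cd4 log2 signal was 12.78, 12.56 and 12.59 in PreDP, 11.74, 11.26 and 11.42 in PostDP, 12.02, 12.14 and 12.50 in SM&M1 and 11.82, 11.95 and 12.18 in M2. The 3 PostDP arrays were below all arrays of the other stages, and SM&M1 and M2 arrays overlapped. Cd4 fell by 1.17 ± 0.19 (SE) on the log2 scale in PostDP against PreDP, which is 2.24-fold (limma, adjusted p = 0.000904). It was higher in SM&M1 than in PostDP by 0.75 ± 0.19 (adjusted p = 0.0212). That second call was lost in 6 of 24 alternative settings, among them centring each array on its median (adjusted p = 0.0785) and leaving out PostDP replicate 2, PostDP replicate 3 or SM&M1 replicate 3 (adjusted p up to 0.105). The other Cd4 probe set gave a difference of 0.16, with overlapping groups, and the mean of both probe sets gave 0.45 (adjusted p = 0.299).

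Cd8a, the CD8 α chain, had the widest span of the 10 genes. Its log2 signal was 14.09, 13.88 and 13.69 in PreDP, 12.93, 12.83 and 12.45 in PostDP, 8.03, 7.68 and 7.65 in SM&M1 and 7.27, 7.08 and 5.22 in M2. The ranges of the 4 stages did not overlap. M2 replicate 3, at a linear signal of 21, was the single array in which Cd8a lay below the array median. Between the highest and lowest group means Cd8a spanned 7.37 log2 units, and 0.0168% of the 11871 tested genes spanned more. Cd8a fell by 4.95 ± 0.43 in SM&M1 against PostDP (30.9-fold; limma, adjusted p = 1.07e-05). In PostDP against PreDP the difference was -1.15 ± 0.43, with no overlap between the groups, and missed the threshold in the fit of all arrays (adjusted p = 0.099). It passed in a fit of only these groups, both with a replicate block (adjusted p = 0.00372) and with no block (adjusted p = 0.00542), and without M2 replicate 3 (adjusted p = 0.00729), whose spread entered the common error.

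Cd8b1, the CD8 β chain, followed the same order with less distance. Log2 signal was 14.66, 14.36 and 14.12 in PreDP, 13.41, 13.30 and 12.98 in PostDP, 10.54, 10.28 and 10.21 in SM&M1 and 10.40, 10.18 and 10.20 in M2. Here SM&M1 and M2 overlapped while the earlier stages stood apart. Cd8b1 fell by 1.15 ± 0.18 in PostDP against PreDP (limma, adjusted p = 0.000611) and fell by 2.89 ± 0.18 in SM&M1 against PostDP (adjusted p = 7.35e-07). Both calls were kept under all 24 alternatives. In M2 against SM&M1 its difference was -0.08 ± 0.18 (adjusted p = 0.996), and that of Cd8a was -1.26 ± 0.43 (adjusted p = 0.211). Without M2 replicate 3 the Cd8a difference was -0.61. The other 4 Cd8a probe sets had differences of -0.86 to -0.02 in that comparison, with overlapping groups in each. In SM&M1 against PostDP the group means of these 4 probe sets differed by -5.23, -4.83, -4.76 and -1.39.

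Zbtb7b, which encodes ThPOK, rose at both steps up to SM&M1. Its log2 signal was 6.92, 6.90 and 7.03 in PreDP, 8.76, 9.28 and 9.69 in PostDP, 10.60, 11.07 and 11.12 in SM&M1 and 10.64, 10.82 and 10.42 in M2. Each step up to SM&M1 had no overlap, and M2 overlapped SM&M1. The rise was 2.29 ± 0.24 in PostDP against PreDP (4.9-fold; limma, adjusted p = 2.35e-05) and 1.69 ± 0.24 in SM&M1 against PostDP (adjusted p = 0.000488). In M2 against SM&M1 the difference was -0.30 ± 0.24 (adjusted p = 0.863). The second Zbtb7b probe set had 0.78 at the first step and 2.16 at the next, so the probe sets share the direction but not the split between the steps. Both calls were kept under all 24 alternatives.

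Runx3 rose at the same steps as Zbtb7b although the cells after PostDP were sorted as CD4SP. Runx3 log2 signal was 7.03, 7.33 and 7.20 in PreDP, 7.98, 7.98 and 8.29 in PostDP, 9.26, 9.07 and 9.21 in SM&M1 and 9.13, 9.20 and 9.27 in M2. PreDP, PostDP and the CD4SP arrays formed 3 ranges with no overlap, while SM&M1 and M2 overlapped. The rise was 0.90 ± 0.15 in PostDP against PreDP (1.86-fold; limma, adjusted p = 0.000903) and 1.09 ± 0.15 in SM&M1 against PostDP (adjusted p = 0.000328). The first of these depends on the probe set: the other Runx3 probe set, above the array median in 6 arrays, gave -0.52 with overlapping groups, and the mean of both gave 0.19 (adjusted p = 0.744). At the next step the other probe set had a difference of 2.18 with no overlap. Centring each array on its median also ended the first call (adjusted p = 0.0604).

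Runx1, a Runx factor that binds the Cd4 silencer in immature thymocytes, spanned little. Its log2 signal was 11.59, 11.24 and 11.56 in PreDP, 11.19, 10.73 and 10.77 in PostDP, 10.72, 10.90 and 11.21 in SM&M1 and 10.72, 10.63 and 10.67 in M2. PreDP lay just above PostDP, and SM&M1 overlapped both PostDP and M2. Runx1 fell by 0.57 ± 0.17 in PostDP against PreDP (limma, adjusted p = 0.0439), a call lost in 15 of 24 alternatives, at adjusted p up to 0.167 when single arrays were left out. Its SM&M1 against PostDP difference was 0.05 ± 0.17 (adjusted p = 0.928), and the 5 other Runx1 probe sets ranged from -0.42 to 1.03. Over the 5 groups Runx1 spanned 0.79 log2 units, close to the median gene at 0.76, and Runx3 spanned 2.02.

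Gata3 and Tox, which act upstream of Zbtb7b in CD4 differentiation, had their highest stage means in PostDP. Gata3 log2 signal was 10.72, 10.73 and 10.69 in PreDP, 12.73, 12.71 and 12.84 in PostDP, 11.47, 11.60 and 11.54 in SM&M1 and 10.92, 10.79 and 10.53 in M2. The PostDP arrays lay above all others of the 4 stages, SM&M1 came next, and M2 overlapped PreDP. Gata3 rose by 2.05 ± 0.21 in PostDP against PreDP (4.13-fold; limma, adjusted p = 2.16e-05) and fell by 1.22 ± 0.21 in SM&M1 against PostDP (adjusted p = 0.0021). M2 against SM&M1 gave -0.80 ± 0.21 with no overlap, which missed the threshold (adjusted p = 0.079). It passed in a fit of only these groups, both with a replicate block (adjusted p = 0.0454) and with no block (adjusted p = 0.0289), and without Tak1-deficient replicate 2 (adjusted p = 0.00143).

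Tox log2 signal was 9.58, 10.42 and 10.53 in PreDP, 12.83, 12.63 and 13.16 in PostDP, 11.93, 11.92 and 11.85 in SM&M1 and 11.28, 11.24 and 10.84 in M2. The 4 stages had no overlap, and the M2 arrays stayed above the PreDP arrays, unlike those of Gata3. Tox rose by 2.70 ± 0.36 in PostDP against PreDP (6.5-fold; limma, adjusted p = 0.00017), the largest change of the 10 genes in that comparison. Its SM&M1 against PostDP difference of -0.98 ± 0.36 missed the threshold (adjusted p = 0.0982) and passed without Tak1-deficient replicate 2 (adjusted p = 0.00888). The other 2 Tox probe sets were at -2.07 and -0.69 there, and the mean of all 3 gave -1.25 (adjusted p = 0.0014). M2 against SM&M1 gave -0.78 ± 0.36 (adjusted p = 0.475), and passed in a fit of only these groups, both with a replicate block (adjusted p = 0.0418) and with no block (adjusted p = 0.0408).

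Myb encodes c-Myb, which acts in double-positive thymocytes and upstream of Gata3. Its log2 signal was 13.44, 13.85 and 13.57 in PreDP, 13.37, 13.38 and 13.20 in PostDP, 10.91, 10.06 and 9.44 in SM&M1 and 10.80, 9.57 and 9.42 in M2. Myb was high in all double-positive arrays and low in all CD4SP arrays of these stages and spread more widely within SM&M1 and M2 than any other of the 10 genes except Cd8a in M2. It fell by 3.18 ± 0.53 in SM&M1 against PostDP (9.07-fold; limma, adjusted p = 0.00162), kept under all 24 alternatives, and the other 2 probe sets were at -3.93 and -3.55. In PostDP against PreDP the difference was -0.30 ± 0.53 (adjusted p = 0.817) and in M2 against SM&M1 -0.21 ± 0.53 (adjusted p = 0.996).

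Satb1, the chromatin organiser, spanned least of the 10 genes. Log2 signal was 14.97, 14.77 and 14.33 in PreDP, 15.00, 14.67 and 14.64 in PostDP, 14.04, 14.49 and 14.75 in SM&M1 and 14.03, 14.34 and 14.40 in M2. The 4 stages overlapped, and no comparison of this probe set passed (adjusted p = 0.922, 0.567 and 0.996 for PostDP against PreDP, SM&M1 against PostDP and M2 against SM&M1). Its span of 0.51 log2 units was exceeded by 74.6% of the tested genes. Other Satb1 probe sets disagreed with it in size, though all 4 shared its direction in SM&M1 against PostDP and in M2 against SM&M1. The most divergent had 1.15 in PostDP against PreDP and -2.01 in SM&M1 against PostDP, both without overlap, and another had -0.97 in M2 against SM&M1, also without overlap. The mean of all 5 gave -0.78 in SM&M1 against PostDP (adjusted p = 0.0375).

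**Figure D2:**
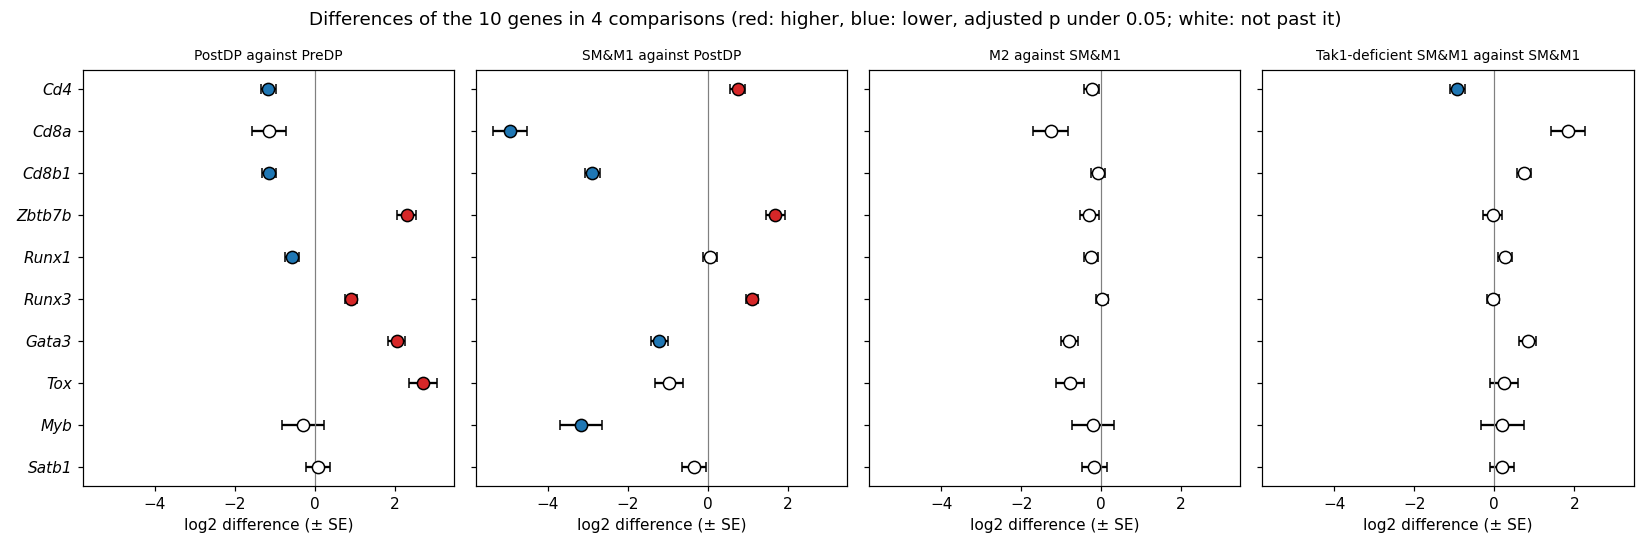
Log2 difference ± SE (x axis) of the 10 genes (y axis) in the 4 comparisons, 1 panel each. Red points were higher and blue points lower at an adjusted p under 0.05 in limma, and white points did not pass. In this fit of all arrays calls number 7, 7, 0 and 1 of 10 from the left panel to the right one.

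**Figure D3:**
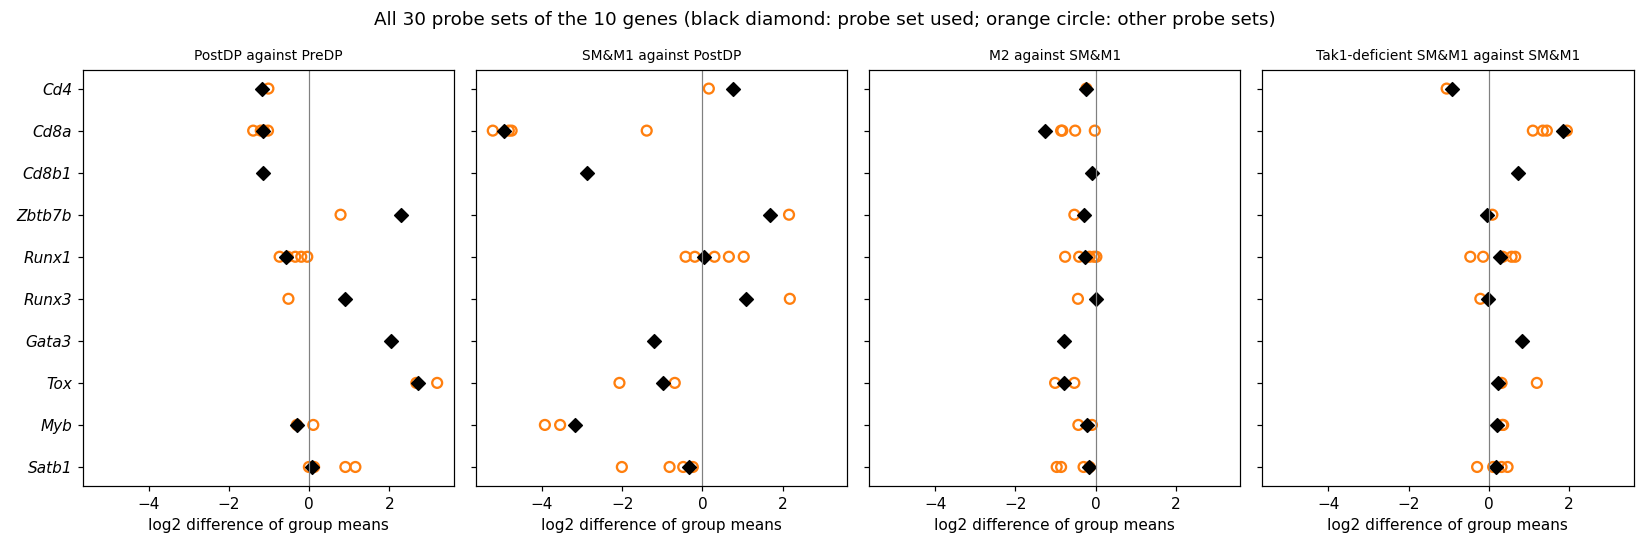
Log2 difference of group means (x axis) for all 30 probe sets of the 10 genes (y axis) in the 4 comparisons. Black diamonds are the probe sets used and orange circles the others. Tox, Myb, Zbtb7b and Satb1 keep their direction across probe sets in SM&M1 against PostDP, but the sizes differ, with Satb1 circles from -2.01 to -0.24. The other Runx3 probe set is at -0.52 in PostDP against PreDP.

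Groups that do not overlap were counted as well. Of the 10 genes, 9 did not overlap between PostDP and PreDP, against 38.7% of all tested genes, and 8 did not overlap between SM&M1 and PostDP, against 40.9%. These 8 include the sort markers Cd4, Cd8a and Cd8b1. Between M2 and SM&M1 3 genes (Cd8a, Gata3 and Tox, all lower in M2) did not overlap, against 23.6% of all genes in either direction and 13.1% lower in M2. The count in either direction is near the background, and for Cd8a the other 4 probe sets overlapped there.

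Tak1-deficient SM&M1 cells were set against SM&M1 cells, a comparison in which genotype, mouse line and sort gate cannot be told apart. Both were sorted as Qa2- CD69+ CD4SP cells, but the labels give the gates on GFP, NK1.1, CD25 and GL3 for SM&M1 cells alone. Of the 10 genes, Cd4 was the single call. Its log2 signal was 11.38, 11.50 and 11.02 in Tak1-deficient SM&M1 cells, against 12.02, 12.14 and 12.50 in SM&M1 cells, with no overlap. Cd4 fell by 0.92 ± 0.19 (1.89-fold; limma, adjusted p = 0.0284), and the other Cd4 probe set had a difference of -1.05, also without overlap. The call was lost in 10 of 24 alternatives, among them a fit of only the groups compared (adjusted p = 0.356) and leaving out any SM&M1 array or Tak1-deficient replicate 1 or 3 (adjusted p up to 0.137).

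Both CD8 chains were above SM&M1 in all 3 Tak1-deficient arrays without passing the test. Cd8a log2 signal was 9.28, 10.22 and 9.38 in Tak1-deficient SM&M1 cells, against 8.03, 7.68 and 7.65 in SM&M1 cells. The difference was 1.84 ± 0.43 (adjusted p = 0.051), or 1.55 (adjusted p = 0.0976) without Tak1-deficient replicate 2, the highest array, and the mean of all 5 probe sets gave 1.54 (adjusted p = 0.00583). Without M2 replicate 3, which widened the common error, the adjusted p was 0.00374. Cd8b1 log2 signal was 10.91, 11.14 and 11.17 in Tak1-deficient SM&M1 cells, against 10.54, 10.28 and 10.21 in SM&M1 cells, a difference of 0.73 ± 0.18 (adjusted p = 0.0592). The 4 other Cd8a probe sets were higher too, by 1.10 to 1.95, with no overlap in any.

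Gata3 log2 signal was 12.03, 12.97 and 12.13 in Tak1-deficient SM&M1 cells, against 11.47, 11.60 and 11.54 in SM&M1 cells. All 3 Tak1-deficient arrays were higher, and replicate 2 lay far above the other 2. The difference was 0.83 ± 0.21 (adjusted p = 0.0686), and without Tak1-deficient replicate 2 it was 0.54 and passed (adjusted p = 0.0433). Counting Cd4, 4 of the 10 genes did not overlap in this comparison, against 20.3% of all tested genes.

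None of the Zbtb7b and Runx differences passed under Tak1 loss. Zbtb7b log2 signal was 10.96, 11.15 and 10.55 in Tak1-deficient SM&M1 cells, against 10.60, 11.07 and 11.12 in SM&M1 cells, and the difference was -0.04 ± 0.24 (adjusted p = 0.939). Runx3 was at 9.22, 8.97 and 9.24 in Tak1-deficient SM&M1 cells, against 9.26, 9.07 and 9.21 in SM&M1 cells, a difference of -0.03 ± 0.15 (adjusted p = 0.914). The groups overlapped for both genes. Runx1 had 11.08, 11.31 and 11.25 in Tak1-deficient SM&M1 cells, against 10.72, 10.90 and 11.21 in SM&M1 cells, and differed by 0.27 ± 0.17 (adjusted p = 0.42), with overlap. The 5 other Runx1 probe sets did not share 1 direction: they differed by 0.57 without overlap and by 0.66, 0.35, -0.14 and -0.46.

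Tak1-deficient replicate 2 went its own way for Tox, Myb and Satb1. Tox was at 12.65, 11.15 and 12.59 in Tak1-deficient SM&M1 cells, against 11.93, 11.92 and 11.85 in SM&M1 cells, so replicate 2 lay below and the other 2 above. The difference was 0.23 ± 0.36 (adjusted p = 0.744), or 0.72 (adjusted p = 0.159) without replicate 2, and the other 2 Tox probe sets were higher without overlap, by 0.32 and 1.20. Myb was at 10.48, 9.07 and 11.47 in Tak1-deficient SM&M1 cells, against 10.91, 10.06 and 9.44 in SM&M1 cells (0.20 ± 0.53, adjusted p = 0.852; 0.84 without replicate 2). Satb1 was at 14.28, 15.40 and 14.16 in Tak1-deficient SM&M1 cells, against 14.04, 14.49 and 14.75 in SM&M1 cells (0.19 ± 0.30, adjusted p = 0.755; -0.20 without replicate 2). For these 3 genes leaving out replicate 2 changed the size or the sign of the difference. Other arrays moved it too: Tox was at -0.03 without Tak1-deficient replicate 1. Without Tak1-deficient replicate 3 Myb was at -0.36 and Satb1 at 0.42.

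Genes of the double-positive stage that are not among the 10 were read beside the CD8 chains and Myb. Of 9 listed marker genes 6 could be used this way (Rag1 and Rag2, the recombinase, Ptcra, the pre-T cell receptor α chain, Dntt, Aqp11 and Ly6d). Their summed linear signal was 57736 to 84449 in PreDP, 9878 to 17364 in PostDP, 1516 to 6045 in SM&M1 and 1138 to 5243 in M2. In Tak1-deficient SM&M1 cells the sums were 4468, 3365 and 10892, against 6045, 1516 and 2116 in SM&M1 cells, so the groups overlapped. Gene by gene, all 6 nevertheless had higher means in Tak1-deficient SM&M1 cells than in SM&M1 cells, by 0.65 to 1.57 log2 units, and all 6 still did without Tak1-deficient replicate 2 (0.94 to 2.13). Rag1 averaged 9.96 in Tak1-deficient SM&M1 cells and 8.39 in SM&M1 cells, and Ly6d averaged 9.89 in Tak1-deficient SM&M1 cells and 8.36 in SM&M1 cells. None of the 6 passed the test (lowest adjusted p = 0.356). Within each CD4SP group Myb was highest in the array with the highest sum (10892 in Tak1-deficient SM&M1, 6045 in SM&M1, 5243 in M2). Cd8b1 was highest in those same arrays (11.17, 10.54 and 10.40). Cd8a was highest in those arrays of SM&M1 (8.03) and M2 (7.27), but among Tak1-deficient arrays in replicate 2 (10.22), which had the lowest sum. The part of these markers in the Myb and CD8 differences was not tested. Of the 6 genes, 5 or 6 were above the array median in Tak1-deficient SM&M1 arrays, against 4 to 6 in SM&M1 arrays.

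**Figure D4:**
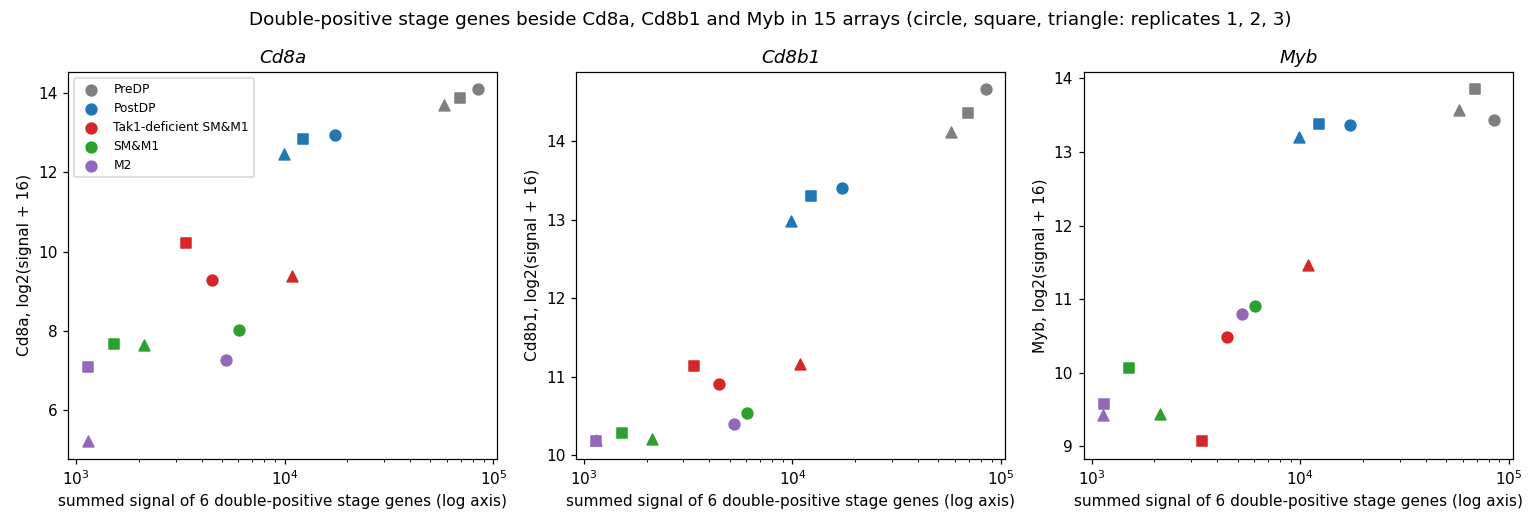
Log2 signal of Cd8a, Cd8b1 and Myb (y axes) against the summed linear signal of 6 double-positive stage genes (x axis, log scale) in the 15 arrays. Colours are groups and symbols replicates. PreDP sums lie between 57736 and 84449 at the right, and Tak1-deficient and SM&M1 arrays overlap along the x axis, although each of the 6 genes has a higher mean in Tak1-deficient cells. Cd8a and Cd8b1 do not overlap between these groups and Myb does.

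Markers of CD8 single-positive cells did not share 1 direction under Tak1 loss. The summed signal of the 5 listed genes outside the 10 (Eomes, Itgae, Nkg7, Gzmk and Ctsw) was 1540 to 2737 in Tak1-deficient SM&M1 cells, against 3309 to 4306 in SM&M1 cells. Ctsw alone made up 59.5% to 72.7% of that sum in Tak1-deficient SM&M1 cells, against 70.6% to 91.5% in SM&M1 cells, and was the single call of the 5 (10.53 in Tak1-deficient SM&M1 cells and 11.58 in SM&M1 cells on the log2 scale). Nkg7 had the higher mean in Tak1-deficient SM&M1 cells (8.74, against 7.48 in SM&M1 cells), and Eomes, Itgae and Gzmk had lower means with no call. Over the stages the sum of the 5 genes was 334 to 369 in PreDP and 840 to 1048 in PostDP. It was 3309 to 4306 in SM&M1 and 6459 to 7431 in M2. Ctsw made up 47.8% to 57.9% of that sum in PreDP and 79.9% to 93.3% in M2. Ctsw, Eomes and Itgae had higher means in M2 than in SM&M1, and Nkg7 and Gzmk had lower ones. The rise of the sum therefore describes mostly Ctsw. Natural killer T and innate-like markers, 8 genes, summed to 1472 to 4733 in Tak1-deficient SM&M1 cells, against 1075 to 4516 in SM&M1 cells. Of the 8 means 7 were higher in Tak1-deficient SM&M1 cells. The 1 lower mean was that of Il2rb (8.26, against 9.25 in SM&M1 cells). Of the 8 genes 1 was called, in a direction not given here. The 4516 came from SM&M1 replicate 1, where all 8 genes were above the array median, while replicates 2 and 3 had 1271 and 1075. M2 replicate 1 had 4872, against 1239 and 1454 in M2 replicates 2 and 3. Macrophage and monocyte markers, 11 genes, summed to 846 to 3502 in Tak1-deficient SM&M1 cells, against 643 to 2543 in SM&M1 cells, and these ranges overlapped. SM&M1 replicate 1 and M2 replicate 1 again stood highest in their groups (2543 and 2571), with the other SM&M1 and M2 arrays at 643 to 988. All 11 had higher means in Tak1-deficient SM&M1 cells, by 0.09 to 1.58 log2 units, and 10 of 11 did without Tak1-deficient replicate 2, with 0 of the 7 tested called (limma, lowest adjusted p = 0.359). Lyz2, the lysozyme of macrophages, averaged 9.01 in Tak1-deficient SM&M1 cells and 7.43 in SM&M1 cells. Of 6 regulatory T cell markers 2 had higher and 4 lower means in Tak1-deficient SM&M1 cells (1 and 5 without Tak1-deficient replicate 2). Of the 5 tested, 1 was called, in a direction not given here. Of 3 γδ T cell markers 2 had higher means and 1 a lower mean, with 0 called. The part of these cells in the Tak1 differences was not tested.

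Partners of the lineage circuit, such as E proteins, their Id inhibitors and relatives of Tox, were read as a companion list. Of 27 listed partners 23 were tested. The shares of all genes called in the 4 comparisons (14.9%, 12.0%, 2.33% and 1.69%) stand beside the counts of all 3 lists. In PostDP against PreDP 5 rose and 3 fell (list median 0.21, all genes 0.01). Tox2, a relative of Tox, rose by 3.61 ± 0.28, and Tox3 fell by 1.43 ± 0.31. The other partners that rose were Id2, Id3, Lef1 and Ikzf1, and those that fell were Smarca4 and Zeb1, named after their values were seen, as are all genes given below only to complete a short count. Without Tak1-deficient replicate 2, 6 partners rose and 5 fell in PostDP against PreDP, while calls among all genes went from 1772 to 2992. In SM&M1 against PostDP 0 rose and 5 fell (list median -0.54, all genes 0.03). Tox2 fell by 2.15 ± 0.28, and Gfi1, Id3, Tox3 and Patz1 also fell. Without Tak1-deficient replicate 2, 1 rose and 10 fell, while calls among all genes went from 1423 to 2726. In M2 against SM&M1 only Tox2 passed, and fell by 1.47 ± 0.28 (adjusted p = 0.0154). A fit of only these groups called 3 lower with a replicate block and 0 with no block. Calls among all genes there went from 277 to 594 with the block and to 428 with none. Under Tak1 loss limma called 0 of the 23, with 3 at an unadjusted p under 0.05 (list median 0.05, all genes 0.05).

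Helper lineage genes numbered 11 and were all tested. In PostDP against PreDP 6 rose and 2 fell (list median 1.17). Cd5, a brake on receptor signalling, rose by 3.03 ± 0.19, and Lag3, a CD4-like inhibitory receptor, fell by 1.80 ± 0.40, as did Slamf6. In SM&M1 against PostDP 5 rose and 1 fell (list median 0.91). Il6ra, the interleukin 6 receptor, rose by 5.43 ± 0.44, and Tnfrsf4, St8sia6, Ctla4 and Icos rose with it. The costimulator Cd28 fell by 0.94 ± 0.19. Without Tak1-deficient replicate 2, 5 rose and 2 fell there, while calls among all genes went from 1423 to 2726. In M2 against SM&M1 St8sia6, a sialyltransferase, rose by 2.22 ± 0.20 and the costimulator Icos fell by 0.85 ± 0.19 (list median -0.35). A fit of only these groups called 3 higher and 3 lower with a replicate block, and 2 higher and 1 lower with no block. Leaving out Tak1-deficient replicate 2 gave 1 higher and 2 lower. Calls among all genes went from 277 to 594, 428 and 672 under these 3 settings. Under Tak1 loss St8sia6 fell by 1.54 ± 0.20 and Tnfrsf4, the costimulator OX40, fell by 1.25 ± 0.18, the 2 calls of the list. The list median was -0.56, and -0.37 without Tak1-deficient replicate 2. A fit of only the groups compared called 0 of the list, and of all genes 0 with a replicate block and 5 with no block.

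Cytotoxic lineage genes numbered 17 and were all tested. In PostDP against PreDP 3 rose and 0 fell (list median 0.75). Cd160, a receptor of cytotoxic cells, rose by 2.09 ± 0.38, and Ctsw and Fasl also rose. A fit of only these groups called 8 higher and 1 lower there, with and without a replicate block. Calls among all genes there went from 1772 to 2703 with the block and to 2246 with none. In SM&M1 against PostDP 1 rose and 1 fell (list median 0.57). The protease gene Ctsw rose by 2.34 ± 0.20 and Prf1, which encodes perforin, fell by 1.51 ± 0.28. Ctsw rose again by 1.0 ± 0.20 in M2 against SM&M1, the single call of 17 (list median 0.20). A fit of only these groups called 2 higher there, with a replicate block (594 of all genes) and without it (428 of all genes). Under Tak1 loss Ctsw fell by 1.05 ± 0.20, again the single call (list median 0.02), and a fit of only the groups compared called 0. Without Tak1-deficient replicate 2 the counts of higher and lower were 6 and 0, 3 and 2, and 2 and 0 in the 3 stage comparisons. Calls among all genes were then 2992, 2726 and 672, against 1772, 1423 and 277 with all arrays.

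**Figure D5:**
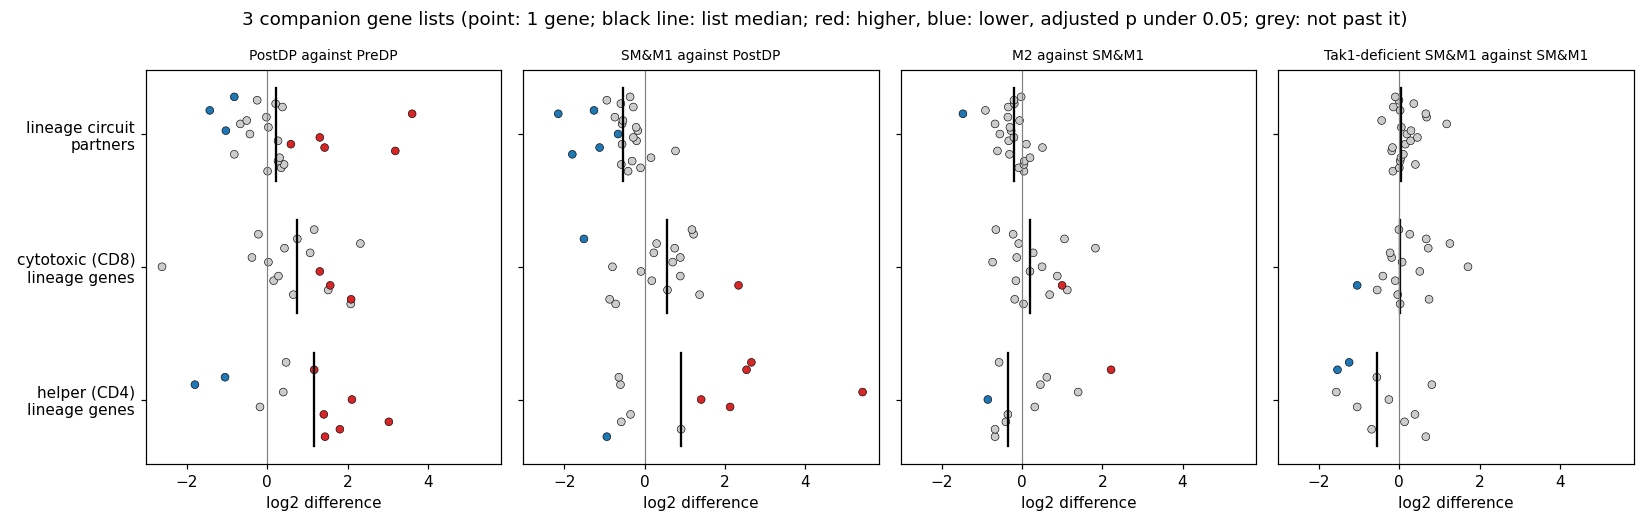
Log2 difference (x axis) of the genes of 3 companion lists (y axis) in the 4 comparisons. Each point is a gene, red if higher and blue if lower at an adjusted p under 0.05 in limma, and black lines are list medians. Helper gene medians are 1.17 and 0.91 in the first 2 panels and -0.56 in the Tak1 panel.

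Among themselves the 10 genes fell into a few shapes over the 15 arrays, given here as Pearson correlations of log2 signal across arrays of 5 groups, which mostly reflect the group means. Cd8a and Cd8b1 correlated at 0.97, and Zbtb7b and Runx3 also at 0.97. Cd8b1 ran opposite to Runx3 (-0.97) and to Zbtb7b (-0.93) and along with Myb (0.93). Gata3 and Tox correlated at 0.77, and Cd4 and Tox at -0.78.

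The genes most like each of the 10 were searched among 11199 named genes by the same measure. For Zbtb7b these were Il7r, the interleukin 7 receptor (0.989), and Vasp (0.987), and for Runx3 they were Mboat1 (0.988) and Samhd1 (0.987). Gata3 was nearest to Cd28 (0.962) and Jarid2 (0.947), Tox to Raph1 (0.965) and Egr2 (0.963), and Myb to Gfi1 (0.974) and Dennd4c (0.967). Cd8a was nearest to Sh2d1a (0.976) and Plxdc2 (0.974), and Cd8b1 to Prrt1 (0.991) and Chrna9 (0.989). Genes of narrow span had looser neighbours: Cd4 with Pycard (0.902) and Bcas3 (0.900), Runx1 with Zfp219 (0.906) and Anapc5 (0.894), and Satb1 with Nono (0.914) and Rps29 (0.912). These are the highest values out of many genes and describe these arrays.

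The order of the groups by mean log2 signal sums up each gene. Cd8a ran PreDP, PostDP, Tak1-deficient SM&M1, SM&M1 and M2 from high to low, with no overlap between neighbours in the probe set used. In the other 4 Cd8a probe sets SM&M1 and M2 overlapped. Cd8b1 had the same order with SM&M1 and M2 overlapping. Zbtb7b and Runx3 had the CD4SP groups on top, overlapping one another, then PostDP and then PreDP, each apart. Gata3 and Tox had PostDP on top, overlapping Tak1-deficient SM&M1. For Gata3 that overlap came only from Tak1-deficient replicate 2 (12.97), as replicates 1 and 3 (12.03 and 12.13) lay below all PostDP arrays. Cd4 had PreDP on top and Tak1-deficient SM&M1 at the bottom, overlapping PostDP. Spans of group means, in log2 units, were 7.37 for Cd8a, 4.12 for Cd8b1, 3.98 for Zbtb7b, 3.69 for Myb, 2.70 for Tox, 2.05 for Gata3, 2.02 for Runx3, 1.34 for Cd4, 0.79 for Runx1 and 0.51 for Satb1.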

How the data were processed

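RNA of sorted thymocytes was hybridised to 15 Affymetrix mouse arrays after single-round amplification, per the labels' protocols. What the authors deposited is linear intensity for 45101 probe sets. Their signal algorithm is not given in the sources used here. With 2% trimmed at each end every array averages 500, so arrays share a scale. No further normalization was applied, and log2(intensity + 16) was analysed, a scale on which changes of dim genes are understated.

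The platform annotation named the probe sets, and the 932 with several genes were not used. A gene with several probe sets was read from its brightest by mean. Of 18193 genes, the 11871 genes above the array median (50th percentile) in at least 3 arrays were tested. The 4 comparisons came from a limma fit (version 3.58.1, R 4.3.3) of all 15 arrays with 1 mean per group and 10 residual degrees of freedom, with Benjamini-Hochberg adjustment over all tested genes and a threshold of 0.05. Standard errors are moderated. The script was tested on simulated data.

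The 10 genes and the companion and marker lists were chosen with earlier results of these data known. All 10 genes are described in each comparison; named beside them are the 2 genes most correlated with each, and the largest rise and fall of each list. Deviations of same-numbered replicates from their group means correlated at 0.339, 0.275 and 0.411 between PostDP and PreDP and at 0.553, 0.436 and 0.326 between M2 and SM&M1, so numbers from the labels were taken to pair these samples. Alternatives restricted the fit to the groups in question, with this block or with none, dropped the filter or set it at the 75th percentile, used quantile normalization, centred arrays on their medians, averaged all probe sets of a gene, set the pseudocount to 1, turned on the trend and robust options of eBayes, or left out each array in turn.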

Additional observations from a re-analysis of the deposited data

How the results depend on the processing

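Of 15 called results of the 10 genes, 11 kept direction and call under all 24 alternatives. The exceptions were Cd4 in SM&M1 against PostDP and under Tak1 loss, and Runx1 and Runx3 in PostDP against PreDP. Gene counts were 1772, 1423, 277 and 201 in PostDP against PreDP, SM&M1 against PostDP, M2 against SM&M1 and Tak1-deficient SM&M1 against SM&M1. A fit of only the groups compared with a replicate block gave 2703 in PostDP against PreDP, 594 in M2 against SM&M1 (2 of the 10 genes called) and 0 in the Tak1 comparison (0 of the 10). A fit of only the groups compared with no block gave 2246 in PostDP against PreDP, 2467 in SM&M1 against PostDP, 428 in M2 against SM&M1 (2 of the 10) and 5 in the Tak1 comparison (0 of the 10). Centring gave 825 in SM&M1 against PostDP, 132 in M2 against SM&M1 and 97 in the Tak1 comparison (0 of the 10). It shifted the median of all genes by -0.145 in PostDP against PreDP and by -0.147 in the Tak1 comparison, and moved the higher and lower calls to 440 and 778, against 873 and 899, and to 13 and 84, against 51 and 150. Without a filter the Tak1 comparison gave 114 (0 of the 10). Of the 10 genes it called 4 with the 75th percentile filter, 4 with trend and robust options and 2 with quantile normalization, and the 75th percentile filter called 1 in M2 against SM&M1. The cause of these moves was not tested.

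In that fit of only the groups compared with a replicate block, the SM&M1 against PostDP and Tak1 comparisons, whose same-numbered samples did not all correlate, lost the Cd4 calls (adjusted p = 0.0632 and 0.802; 0.0308 and 0.356 with no block), and Tox passed in SM&M1 against PostDP (adjusted p = 0.0223; 0.00653 with no block). In the paired comparisons that fit changed no other call of the 10 genes than those given with the results.

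Leaving out single arrays gave 1171 (without PostDP replicate 3) to 2992 calls in PostDP against PreDP with 6 to 7 of the 10 genes, 871 (without SM&M1 replicate 3) to 2726 in SM&M1 against PostDP with 6 to 8, 82 (without SM&M1 replicate 3) to 672 in M2 against SM&M1 with 0 to 1, and 65 (without SM&M1 replicate 3) to 347 in the Tak1 comparison with 0 to 2. All 4 highest counts came without Tak1-deficient replicate 2.

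Signs that turned were of small uncalled differences. Centring gave -0.07 for Satb1 in PostDP against PreDP and -0.02 for Runx3 in M2 against SM&M1. The mean of probe sets gave -0.21 for Runx3 in M2 against SM&M1 and 0.03 for Zbtb7b under Tak1 loss. Leaving out arrays gave -0.10 to 0.22 for Satb1 in PostDP against PreDP (-0.04 among the turned values), -0.09 to 0.19 for Runx1 in SM&M1 against PostDP (-0.04 and -0.02), and in M2 against SM&M1 -0.15 to 0.02 for Cd8b1, -0.64 to 0.18 for Myb (0.05) and -0.03 to 0.06 for Runx3 (-0.01). Under Tak1 loss it gave -0.09 to 0.05 for Runx3 (0.01), -0.20 to 0.13 for Zbtb7b (0.03 and 0.06), -0.36 to 0.84 for Myb (-0.14), -0.03 to 0.72 for Tox and -0.20 to 0.42 for Satb1.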
